A study of Mus musculus with 3 samples.

Results

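Cells that carry Ptprc were compared between 2 single-cell libraries of fetal mouse bone marrow (BM) at E18.5, to see which blood cells a sort for endothelial cells (ECs) takes in. They were chosen on measured values: a cell had to hold 20 or more molecules in all and 2 or more molecules of Ptprc. The rule took 963 of 4043 cells (23.8%) in the sorted library, E18.5 EC, and 9244 of 12884 cells (71.7%) in the unsorted marrow library, E18.5 BM cells. Together these were 10207 of the 24875 cells of the series. They are called Ptprc cells below.

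The study measured a custom panel of Wnt pathway components and cell type markers by targeted single-cell RNA sequencing. Both libraries came from wild-type C57/B6 embryos, each from several embryos pooled, and a library of adult marrow was not used in the comparison. For E18.5 EC the gate was CD31 together with endomucin by the series description, whereas the methods name CD31 only, and the endomucin gene was not among the targets seen. E18.5 BM cells were what remained after beads had removed cells with markers of mature blood lineages. That depletion is described for E18.5 BM cells only. The sort, the depletion, the library, the embryos and the depth differ together between the sides, and their parts in any difference cannot be told apart.

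Ptprc encodes CD45, a phosphatase on the surface of nearly all nucleated blood cells and absent from endothelium. Pecam1 encodes CD31, an adhesion molecule of endothelial junctions that is also carried by blood progenitors, monocytes, macrophages and platelets, so an antibody against it can gather blood cells as well as vessels. Endomucin is a sialomucin of capillary and venous endothelium that is also found on haematopoietic stem cells. Srgn encodes serglycin, the proteoglycan of secretory granules in blood cells.

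Each target is read at the 3′ end of a transcript, and the amplicons of the genes that matter most here matched GENCODE M21 transcripts on GRCm38 (mm10), each with its end in an untranslated region. Ptprc lies at chr1:138063407-138175306 on the minus strand, Pecam1 at chr11:106654218-106715259 on the minus strand and Srgn at chr10:62494428-62507755 on the minus strand. Stab1 lies at chr14:31139013-31168641 on the minus strand. Ecm1 lies at chr3:95734147-95739569 on the minus strand and Spp1 at chr5:104435118-104441050 on the plus strand. Lef1 lies at chr3:131110471-131224356 on the plus strand, Alpl at chr4:137741733-137796384 on the minus strand and Hlf at chr11:90336536-90390895 on the minus strand.

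The Ptprc cells held 150589 molecules in E18.5 EC, against 1153261 in E18.5 BM cells, with medians of 124 and 92 molecules per cell. A level is given as molecules per 10000 panel molecules of the Ptprc cells, and a difference as a ratio of levels, E18.5 EC over E18.5 BM cells. With 1 library on each side no test was possible. The 95% intervals are exact and cover counting error only, and they are too narrow even for that, because molecules of 1 cell are not independent. For shares of cells, every cell was thinned to 50 molecules, which left 894 cells of E18.5 EC and 7485 of E18.5 BM cells and dropped 69 and 1759 shallower ones. The libraries shared 58 cell barcodes, held by 17 and 44 of the Ptprc cells.

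The threshold separated the 2 libraries differently. In E18.5 EC the cells without Ptprc had a Pecam1 level of 2680 and a Srgn level of 116, and the 66 cells with 1 Ptprc molecule, just outside the rule, lay between with 1616 and 2031. The 38 cells just inside it, with 2 Ptprc molecules, had 397 and 4913. The change was gradual in E18.5 BM cells, where 1286 cells had 1 molecule and 1280 had 2, from a Srgn level of 1266 to 1994 and a Pecam1 level of 115 to 101. Cells with 1 Ptprc molecule were 1.63% of E18.5 EC and 9.98% of E18.5 BM cells. These values describe the rule and support no comparison.

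Srgn, a marker of blood cells that the rule did not use, was at 3377 (3348 to 3406) in the Ptprc cells of E18.5 EC and at 2504 in those of E18.5 BM cells, a ratio of 1.35 (1.34 to 1.36). It was in 96.5% and 91.5% of the thinned cells, and in 99.2% and 96.5% before thinning. In the reference cells of each library, which had no Ptprc and at least 2 endothelial targets, it was in 32.8% and 29.4% of thinned cells, and the cells without Ptprc had median depths of 75 and 137 molecules. The Ptprc cells of both libraries therefore stood above their own reference cells in Srgn. The reference cells of E18.5 BM cells were not endothelial only. Of the thinned ones 50.3% had no Pecam1, and their level of the matrix transcript Postn was 1762, against 12.7 in those of E18.5 EC. The Ptprc level itself was 621 in E18.5 EC, against 490 in E18.5 BM cells, which the rule set in part.

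Pecam1 was higher in the Ptprc cells of the sorted library. Its level was 365 (355 to 374) in E18.5 EC, against 97.9 (96.1 to 99.7) in E18.5 BM cells, a ratio of 3.73 (3.61 to 3.85). The ratio was 8.29 after the first correction step and 7.45 with raw molecules. In these 2 settings, here and below, the Ptprc minimum was applied to those molecules, so the cells changed too. They were 1308 of E18.5 EC and 10696 of E18.5 BM cells after the first step, and 1320 and 10797 with raw molecules. The ratio was 1.79 against only those Ptprc cells of E18.5 BM cells that had Pecam1, with all of E18.5 EC kept. At equal depth 69.1% (66.0 to 72.1) of the cells of E18.5 EC and 33.7% (32.6 to 34.8) of those of E18.5 BM cells had a Pecam1 molecule, and before thinning 81.6% and 48.2%. The Ptprc cells of E18.5 EC were still far below the endothelial cells around them. Their median was 1 Pecam1 molecule of 50, against 14 in the reference cells of that library. The median was 0 in the Ptprc cells of E18.5 BM cells. Pecam1 was among the targets that chose the reference cells.

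**Figure D1:**
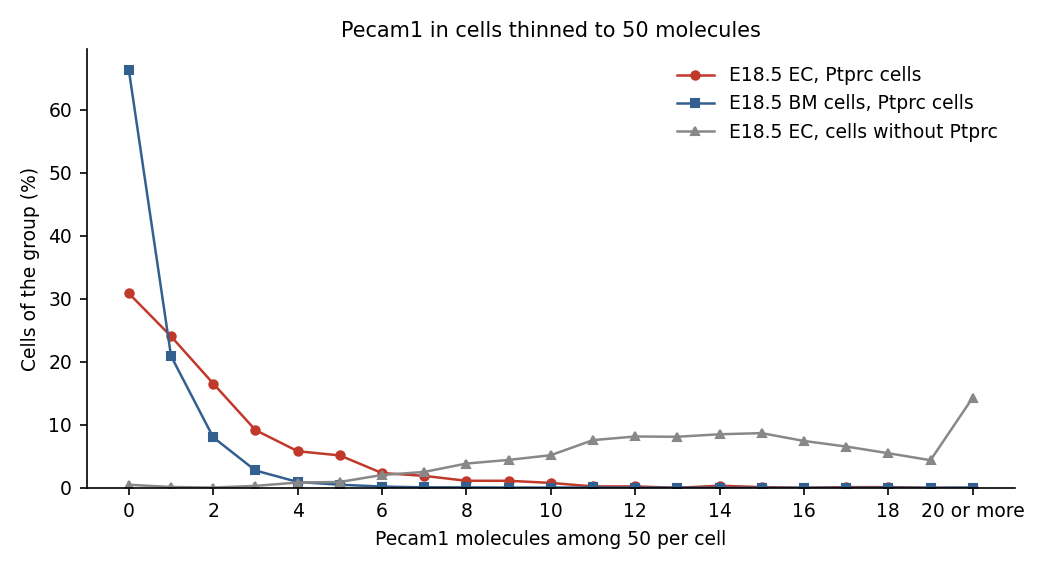
Share of cells (%) by the number of Pecam1 molecules among 50 per cell. Shown are the Ptprc cells of E18.5 EC (894 cells), those of E18.5 BM cells (7485 cells) and the reference cells of E18.5 EC (2257 cells). No Pecam1 molecule was drawn in 30.9%, 66.3% and 0.487% of them, and the last group peaks far to the right of the other 2 (the last point pools 20 or more). The reference cells, drawn as cells without Ptprc, also had at least 2 endothelial targets, with Pecam1 counted among these.

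Other endothelial transcripts were found in the same Ptprc cells, and Pecam1 was set against 4 of them at the ratio they had in the cells of E18.5 EC without Ptprc. Kdr, the receptor for vascular endothelial growth factor, was accompanied there by 12.9 Pecam1 molecules each. At that rate the 136 Kdr molecules of the Ptprc cells correspond to 32.0% of the 5492 Pecam1 molecules counted. With Cdh13, Apln and Gja4 as the measure, the share lay between 23.0% and 38.8%. The same rates gave 10.2% to 17.3% of Stab1, 0.803% to 1.36% of Ecm1 and under 0.1% of Spp1. For Igfbp7 they gave 74.5% to 126% and for Vwf 50.4% to 85.3%. These shares depend on the error correction. In these Ptprc cells the last correction step kept 10.5% of Kdr, 8.64% of Cdh13, 10.3% of Apln and 20.6% of Gja4 molecules. It kept 31.9% of Pecam1 and 60.3% of Ecm1 molecules. The shares may therefore be too low and do not tell how much Pecam1 came with endothelial transcripts. In the Ptprc cells of E18.5 BM cells the last step kept 23.1% of Kdr, 21.2% of Cdh13, 29.6% of Apln and 35.7% of Gja4 molecules. For Pecam1 and Ecm1 it kept 51.0% and 62.1% there, so the step also bears on ratios between the libraries.

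Across the panel, 108 targets were listed in both E18.5 files and 101 had 20 or more molecules in the Ptprc cells of both together. Of these, 19 were at least 2-fold higher in E18.5 EC (18.8%) and 36 at least 2-fold lower (35.6%), with 46 in between. The interval excluded 1 for all 19 higher targets and for 34 of the 36 lower ones, where the exceptions were Fzd8 and Col22a1 with 1 molecule each in E18.5 EC. The median ratio of the 101 targets was 0.742, and it moved up by 0.29 on the log2 scale when Pecam1, Srgn and Ptprc were left out of the totals. With every cell given equal weight the counts were 26 higher and 27 lower. Leaving out the shared barcodes gave 19 and 36 again.

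**Figure D2:**
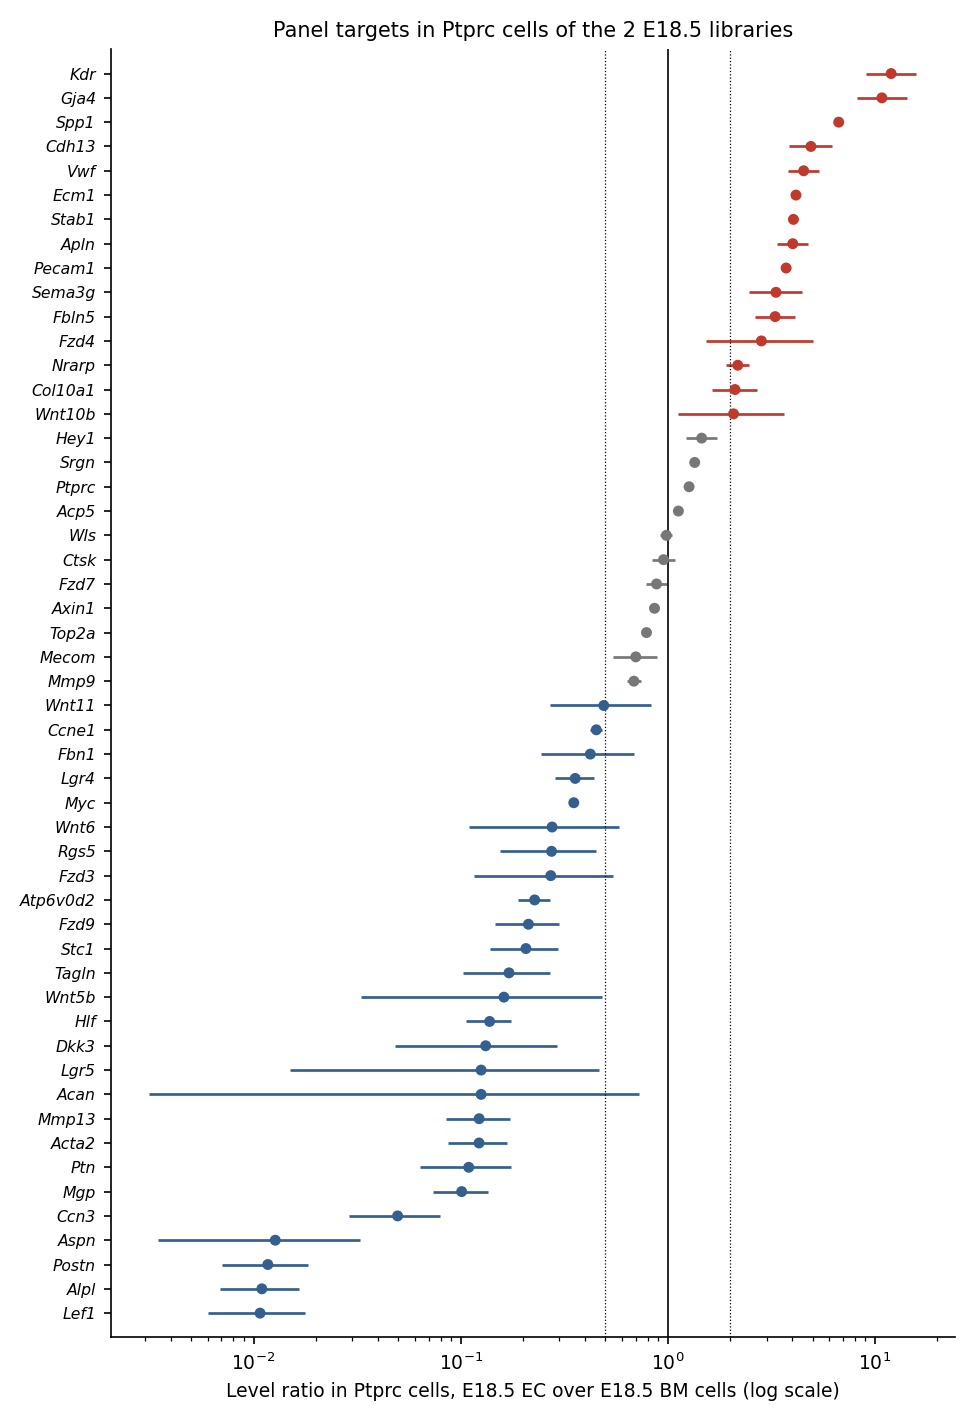
Level ratio in Ptprc cells, E18.5 EC over E18.5 BM cells, on a log axis, for the named targets with molecules in both groups (points) with 95% counting intervals (lines). Dotted lines mark 2-fold; Kdr is at the top with 12.0 and Lef1 and Alpl are at the bottom, near 0.011.

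Spp1, Ecm1 and Stab1 were higher in the Ptprc cells of E18.5 EC. Spp1 encodes osteopontin, a secreted phosphoprotein of bone matrix that macrophages and osteoclasts also make. Its level was 688 (674 to 701) in E18.5 EC, against 103 (101 to 105) in E18.5 BM cells, a ratio of 6.69 (6.51 to 6.86). Spp1 was in 26.1% and 7.15% of thinned cells, against 1.95% of the endothelial reference cells of E18.5 EC. The ratio was 0.98 with raw molecules and 1.01 after the first correction step. Both settings also took in more cells. In the Ptprc cells of the comparison the last correction step kept 58.3% of 17746 Spp1 molecules in E18.5 EC. In those of E18.5 BM cells it kept 31.7% of 37416. The parts of the correction and of the added cells in the change of the ratio were not tested. The ratio was 1.41 without cells that held 2 or more endothelial targets other than Pecam1. That filter counts Stab1 and Ecm1 among those targets and so takes out cells with both.

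Ecm1, a secreted extracellular matrix protein, was at 374 (364 to 384) in E18.5 EC, against 89.9 (88.2 to 91.6) in E18.5 BM cells, a ratio of 4.16 (4.02 to 4.29). It was in 49.6% and 23.2% of thinned cells. Stab1 encodes stabilin 1, a scavenger receptor of sinusoidal endothelium and of tissue macrophages. Its level was 153 (147 to 159) against 37.8 (36.7 to 38.9), a ratio of 4.04 (3.84 to 4.25), and it was in 26.8% against 7.35% of thinned cells. Stab1 is also a transcript of the endothelial cells of E18.5 EC, where 70.7% of thinned reference cells had it. Without the cells that held 2 or more endothelial targets the ratio of Ecm1 was 1.92 and that of Stab1 1.60, both under 2-fold. That filter counts Ecm1 and Stab1 themselves and took out 458 cells of E18.5 EC and 1329 of E18.5 BM cells. The fall is therefore in part built in, and these values do not test the differences.

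These transcripts met in the same cells. Of the 240 thinned Ptprc cells of E18.5 EC with Stab1, 73.3% (67.3 to 78.8) had Ecm1 and 33.8% (27.8 to 40.1) had Spp1, against 40.8% and 23.2% of those without Stab1. The shares in E18.5 BM cells were 58.9% and 14.5% in the 550 cells with Stab1, and 20.4% and 6.56% in those without it. Mki67, a marker of dividing cells, was in fewer cells with Stab1 on both sides, 16.7% against 60.6% in E18.5 EC and 38.9% against 65.4% in E18.5 BM cells. The libraries differed in the Pecam1 of such cells: of those with Stab1, 65.4% (59.0 to 71.4) had Pecam1 in E18.5 EC, against 13.1% (10.4 to 16.2) in E18.5 BM cells.

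The 245 Ptprc cells of E18.5 EC with 2 or more Stab1 molecules, 25.4% of all, had a profile of their own. Their Spp1 level was 1902, their Acp5 level 1442 and their Ecm1 level 829. In the 613 cells without Stab1 these were 100, 282 and 144. Srgn ran the other way, with 1167 in the cells with Stab1 and 4654 in those without, and so did Mki67, with 87.7 and 520. These cells were grouped by Stab1 itself, so the differences are descriptions. The cells with Stab1 in E18.5 BM cells also had less Srgn (989) and less Mki67 (221) than the cells without it (2721 and 454), but their Spp1 level was 413 and their S100a4 level 2842, against 867 for S100a4 in E18.5 EC.

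**Figure D3:**
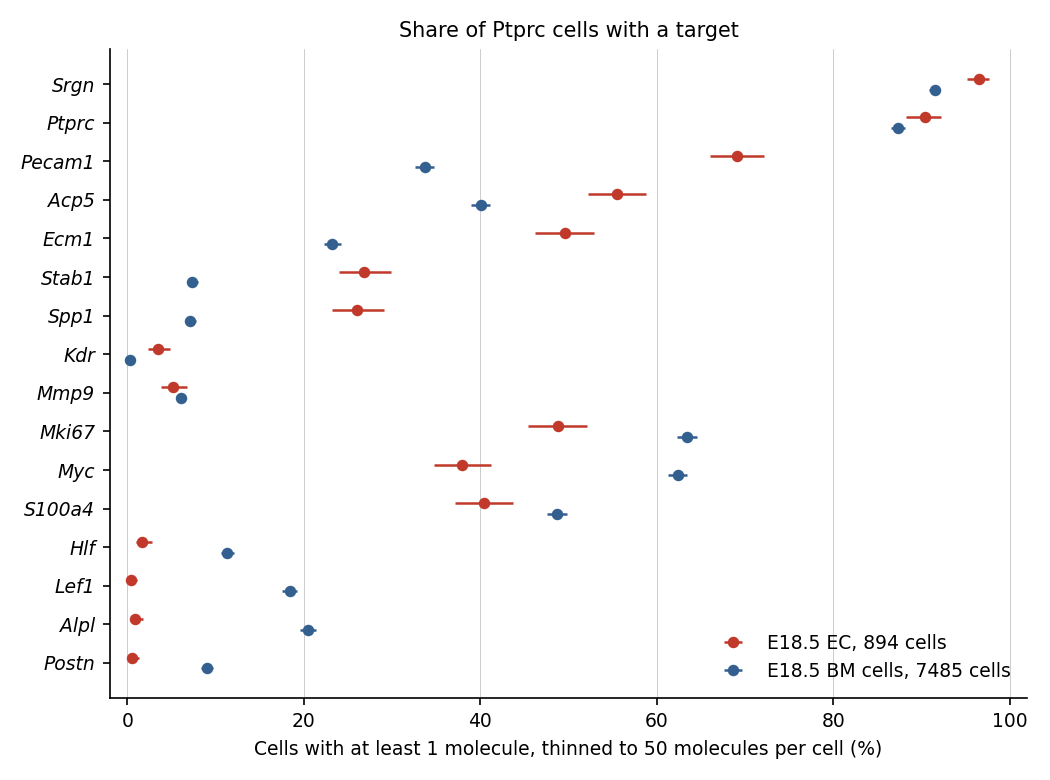
Share of Ptprc cells (%) with at least 1 molecule of a target after thinning to 50 molecules per cell, with exact binomial 95% intervals, in E18.5 EC and E18.5 BM cells. Pecam1, Ecm1, Stab1 and Spp1 lie to the right in E18.5 EC, while Myc, Hlf, Lef1, Alpl and Postn lie to the right in E18.5 BM cells.

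Among endothelial transcripts 10 of 12 tested were at least 2-fold higher in E18.5 EC, against 18.8% over the panel, 1 was lower and 1 was in between, with a median ratio of 4.03 against 0.742 over the panel. Kdr was at 9.03 (7.58 to 10.7) against 0.754 (0.604 to 0.931), a ratio of 12.0 (9.08 to 15.9). Gja4, the arterial gap junction protein connexin 37, was at 8.43 against 0.78, but its 127 molecules in E18.5 EC lay in 18 cells, 1 of these cells held 39.4% of them, and the ratio was 0.709 without cells that held 2 or more endothelial targets. The adhesion protein Cdh13 was at 7.70 against 1.57, and the peptide ligand Apln of endothelial tips was at 13.9 against 3.46. Vwf, the clotting factor of endothelium, megakaryocytes and platelets and the only member of the megakaryocyte list seen, was at 14.6 against 3.23. The ratios of these last 3 ran from 4.01 to 4.91. After the first correction step they were 13.6 for Cdh13, 13.8 for Apln and 19.9 for Vwf, and without cells that held 2 or more endothelial targets they were 4.47, 1.05 and 1.53, with Kdr at 3.31.

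Sema3g, a semaphorin of arterial endothelium, was at 4.65 against 1.40, yet 1 cell held 52.9% of its molecules in E18.5 EC, the thinned shares were 0.895% and 0.949%, and without cells that held 2 or more endothelial targets the ratio was 0.147. The Notch feedback regulator Nrarp was at 21.2 against 9.73, and its ratio of 2.18 fell under 2-fold with cells weighted equally (1.64), after thinning (1.83) and without cells that held 2 or more endothelial targets (1.13). Hey1, a transcription factor downstream of Notch, was in between with 10.4 against 7.15. Stc1, a secreted glycoprotein of arterial endothelium, was the lower member of the list. Its level was 1.99 in E18.5 EC against 9.64 in E18.5 BM cells, 4.84 times lower (3.37 to 7.21). The direction was not stable, because its ratio was 4.10 after the first correction step, a setting that also took in more cells. The last step kept 3.28% of 914 Stc1 molecules in the Ptprc cells of E18.5 EC. It kept 49.1% of 2266 in those of E18.5 BM cells. The parts of the correction and of the added cells in this change were not tested. Summed without Pecam1 the list was 3.74 times higher in E18.5 EC (3.65 to 3.83), and without Stab1 and Ecm1 as well 2.44 times (2.29 to 2.59). Leaving out every Ptprc cell with 2 or more endothelial targets other than Pecam1 gave 1.57 for the list and 3.43 for Pecam1. These were 458 cells of E18.5 EC and 1329 of E18.5 BM cells. The filter counts the members of the list, so a fall of the list and of its members is in part built in.

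The endothelial targets other than Pecam1, Stab1 and Ecm1 were far below their level in endothelial cells. Their summed level was 91.9 in the Ptprc cells of E18.5 EC and 1613 in the cells of that library without Ptprc. At least 2 of them were in 87 of the 963 cells (9.03%), and those cells had a median of 188 molecules and a Pecam1 level of 823. Of the 9244 cells of E18.5 BM cells 211 (2.28%) had 2 or more, with a median of 123 molecules. No doublet caller was run, and the part of 2 cells caught together in these values was not tested.

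Lef1 and Alpl had the lowest ratios of the targets seen in both groups. Lef1, a DNA-binding partner of beta-catenin in the Wnt pathway that is also used by early lymphoid cells, was at 0.996 (0.558 to 1.64) in E18.5 EC, against 92.6 (90.9 to 94.4) in E18.5 BM cells, 93.0 times lower (56.3 to 166). Alpl, the tissue-nonspecific alkaline phosphatase of bone-forming and other cells, was at 1.46 (0.916 to 2.21) against 133 (131 to 135), 91.1 times lower (60.2 to 145). Lef1 was in 0.447% of thinned cells of E18.5 EC and in 18.4% on the other side, and Alpl in 0.895% and 20.5%. The 15 Lef1 molecules of E18.5 EC came from 11 cells and the 22 Alpl molecules from 12.

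In E18.5 BM cells the 2 transcripts marked the same cells. Of the 1376 thinned Ptprc cells with Lef1, 88.1% (86.3 to 89.7) also had Alpl, against 5.27% of those without Lef1. Of these Lef1 cells 93.9% had Mki67, against 56.6% of the others. Both were higher in the Ptprc cells of that library than in its cells without Ptprc, Lef1 at 265% and Alpl at 221% of that level. Pecam1 was not missing from them: 43.8% (41.1 to 46.4) of the Lef1 cells had it, against 31.4% of the cells without Lef1. Among the 2543 Ptprc cells of E18.5 BM cells with 2 or more Pecam1 molecules Lef1 was at 121 and Alpl at 150. Cells with Lef1 or Alpl were 1.23% (0.616 to 2.19) of thinned Ptprc cells in E18.5 EC, against 22.7% (21.7 to 23.7) in E18.5 BM cells.

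The panel has few markers of stem and progenitor cells. Hlf, a transcription factor of haematopoietic stem cells, was at 4.45 (3.45 to 5.65) in E18.5 EC, against 32.2 (31.2 to 33.3) in E18.5 BM cells, 7.25 times lower (5.69 to 9.37). It was in 1.68% (0.942 to 2.75) and 11.3% (10.6 to 12.1) of thinned cells and in 4.57% and 16.0% before thinning. Its share in the reference cells was 0.0443% in E18.5 EC, against 1.66% in E18.5 BM cells, where these cells were not endothelial only. Mecom, a transcription factor of stem cells and also of arterial endothelium, was at 4.85 against 6.92, a ratio of 0.701 (0.544 to 0.891). In E18.5 EC 18.9% of the endothelial reference cells had Mecom, against 1.12% of Ptprc cells, and 1 Ptprc cell held 24.7% of its molecules. The pair summed to a ratio of 0.237 (0.199 to 0.281), which was 0.835 after the first correction step and 0.723 with raw molecules, where Mecom alone was at 3.44 and 2.99.

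Cells with Hlf were few in E18.5 EC. The 44 Ptprc cells of E18.5 EC with Hlf had a Myc level of 645 and a Srgn level of 4276, and the 1480 of E18.5 BM cells had 1107 and 2992. Their Pecam1 levels were 348 and 118. Mecom was in 3 of the 15 thinned Hlf cells of E18.5 EC (interval 4.33% to 48.1%) and in 21.4% of the Hlf cells on the other side, so the few cells do not allow a comparison.

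Of the 4 targets of myeloid cells and osteoclasts, 3 were within 2-fold and 1 was lower (35.6% over the panel), with a median ratio of 0.820. Acp5, an acid phosphatase of osteoclasts and macrophages, was at 749 (735 to 763) in E18.5 EC, against 665 (661 to 670) in E18.5 BM cells, and in 55.5% against 40.0% of thinned cells. Weighting cells equally its ratio was 2.06, and without cells that held 2 or more endothelial targets it was 0.610. The gelatinase Mmp9 of neutrophils and osteoclasts was at 44.0 against 64.1, a ratio of 0.686 (0.633 to 0.743). Thinned cells with Mmp9 were not more common in E18.5 EC, with 5.15% (3.79 to 6.80) against 6.11% (5.57 to 6.67). The direction of the level ratio depended on the weight of deep cells: the ratio was 3.29 with cells weighted equally and 1.93 after thinning. It was 1.25 without cells that held 2 or more endothelial targets. It was 3.73 against only the Ptprc cells of E18.5 BM cells with Pecam1, a setting that kept the cells of E18.5 EC without Pecam1 and so compares unlike sets. Ctsk, the collagen-degrading protease of osteoclasts, was at 18.4 against 19.3, with all 277 molecules of E18.5 EC in 11 cells. Atp6v0d2, a proton pump subunit of osteoclasts, was at 8.77 (7.33 to 10.4) against 38.5 (37.4 to 39.6), 4.39 times lower (3.69 to 5.26). Its ratio was 1.39 when only the cells of E18.5 BM cells with Pecam1 were used and E18.5 EC was left whole.

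The summed ratio of the 4 was 1.04 (1.02 to 1.06), and it changed with the weight given to deep cells. It was 2.07 with cells weighted equally and 1.94 after thinning. Without the cells that held 2 or more endothelial targets it was 0.661.

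Cells with Mmp9 differed between the libraries in their other transcripts. In E18.5 BM cells 91.0% (88.0 to 93.5) of the 457 thinned cells with Mmp9 had S100a4, a calcium-binding protein of migrating myeloid cells, and 89.9% had Acp5. In E18.5 EC 30.4% (17.7 to 45.8) of 46 had S100a4 and 30.4% had Acp5. The Ptprc cells with 2 or more Mmp9 molecules had medians of 62 molecules in E18.5 EC, against 325 in E18.5 BM cells, with Srgn levels of 1753 and 169. S100a4 over all Ptprc cells was at 655 (642 to 668) against 1602, 2.44 times lower (2.39 to 2.49), and in 40.4% against 48.7% of thinned cells. S100a4 was singled out after its values were seen, as were Vcan, Igfbp7, Mki67, Cdk1, Ccnd1, Matn1, Lepr, Fzd8, Col2a1 and Col22a1.

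Splitting the Ptprc cells by Pecam1 showed which of them carried the antigen's transcript. In E18.5 EC the 786 cells with Pecam1 and the 177 without it had nearly the same level of Myc, 211 and 202. The cells without Pecam1 had more Mmp9, 239 against 19.9, and more S100a4, 1291 against 577. They also had more Vcan and Spp1. Their median depth was 67 molecules, against 143 in the cells with Pecam1, and the part of depth in the split was not tested.

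The 4459 Ptprc cells of E18.5 BM cells with Pecam1 were poorer in Acp5, 199 against 1097, and in S100a4, 519 against 2605, than the 4785 without it. They were also poorer in Stab1, 13.8 against 60.0. They were richer in Myc, 775 against 433, and in Hlf, 39.1 against 25.9. Against those cells alone, the ratios of E18.5 EC were 1.79 for Pecam1, 0.196 for the stem and progenitor pair and 3.72 for the myeloid and osteoclast list. All 963 Ptprc cells of E18.5 EC were kept, also those without Pecam1, so these ratios compare unlike sets.

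**Figure D4:**
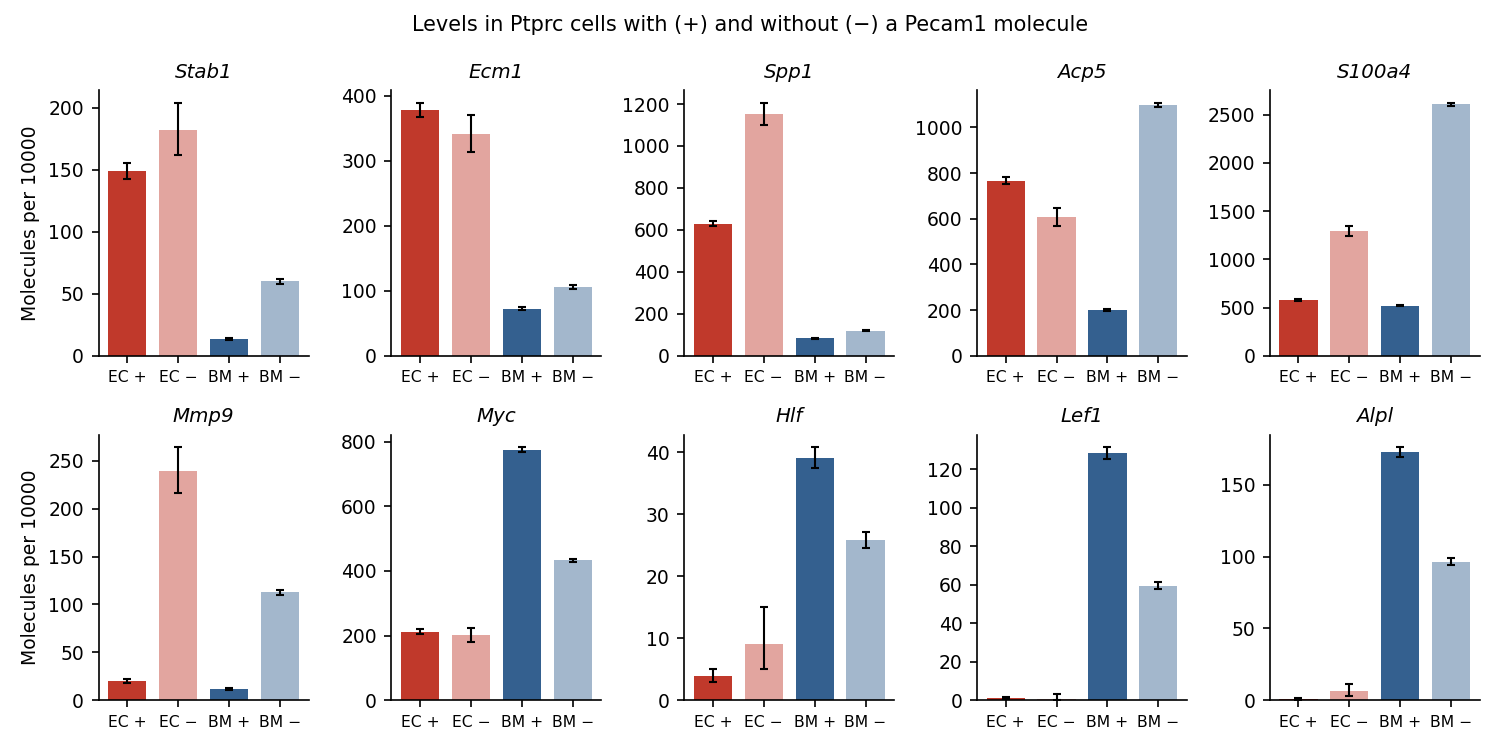
Levels (molecules per 10000, linear axes from 0) of 10 targets in Ptprc cells with (+) and without (−) a Pecam1 molecule in E18.5 EC (EC) and E18.5 BM cells (BM), with exact 95% counting intervals. Stab1 is above 149 in both bars of E18.5 EC and 13.8 in the cells of E18.5 BM cells with Pecam1, and Lef1 and Alpl are high in both bars of E18.5 BM cells only.

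Of 19 mesenchymal and mural targets tested, 10 were at least 2-fold lower, 3 higher and 6 in between, with a median ratio of 0.423, against 35.6% lower and 18.8% higher over the panel. Their summed level was 731 in E18.5 EC, against 481 in E18.5 BM cells, a ratio of 1.52 (1.49 to 1.55), because Spp1 held 10354 of the 11005 molecules in E18.5 EC. Postn, the matrix protein periostin, was at 1.26 against 108, and Aspn, a small leucine-rich proteoglycan, at 0.266 against 20.9. The matricellular protein Ccn3 was at 1.13 against 22.8, and the calcification inhibitor Mgp at 2.92 against 28.9. The ratios of Postn, Aspn, Ccn3 and Mgp were 0.0117, 0.0127, 0.0496 and 0.101. After the first correction step they were nearer to 1, at 0.0647, 0.0649, 0.187 and 0.295. The last correction step kept 6.78% to 8.06% of their molecules in the Ptprc cells of E18.5 EC, and 27.3% to 30.1% in those of E18.5 BM cells. Ptn, the growth factor pleiotrophin, was at 1.13 against 10.3, and its ratio of 0.109 was 0.618 after the first correction step and 0.449 with raw molecules. The smooth muscle proteins Acta2 and Tagln were at 2.59 against 21.1 and at 1.26 against 7.37. Rgs5, a regulator of G protein signalling in pericytes, was at 1.06 against 3.87. In E18.5 BM cells the top cell of each held 21.9% of Acta2, 32.6% of Tagln and 23.1% of Rgs5 molecules. Their thinned shares were not lower in E18.5 EC: 1.79% against 1.39%, 0.895% against 0.842% and 0.559% against 0.441%. After the first correction step the ratio of Acta2 was 0.0534 (0.123 before), that of Tagln 0.0903 (0.171) and that of Rgs5 0.579 (0.275). Fbn1, the microfibril protein fibrillin 1, was at 1.13 against 2.67.

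Levels in Ptprc cells were also set against those in cells without Ptprc. In E18.5 BM cells Postn, Mgp, Aspn, Ccn3, Acta2, Tagln, Ptn and the collagenase Mmp13 stood in Ptprc cells at 4.03% to 6.33% of their level in cells without Ptprc. The range of the same targets was wide in E18.5 EC, from 1.76% for Ptn to 33.8% for Acta2, with Mmp13 at 20.3% and Tagln at 20.4%, and 2994 of the 3014 cells without Ptprc there held 2 or more endothelial targets. Other targets lay outside these ranges. Spp1 stood at 8.45% in E18.5 BM cells and at 1152% in E18.5 EC, and the cartilage collagen gene Col2a1 at 1.41% and 183%. Lef1 and Alpl, given above for E18.5 BM cells, stood at 66.9% and 21.1% in E18.5 EC. The summed list without Alpl and Spp1 was at 41.8 in the Ptprc cells of E18.5 EC against 245, and at 1004 against 4895 in the cells without Ptprc. With 693 Ptprc cells of E18.5 BM cells that held 2 or more such targets left out, and 50 of E18.5 EC, 23 targets were lower in place of 36, and Acta2, Tagln and Rgs5 were higher. Of the 3 higher members Spp1 is given above, Fbln5, the elastic fibre protein fibulin 5, was at 8.04 against 2.44 (a ratio of 3.30, and of 1.23 without cells that held 2 or more endothelial targets), and Lepr, the leptin receptor, had 7 molecules in E18.5 EC.

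Of 6 cartilage targets, 2 were lower, 1 was higher and 3 were in between, with a median ratio of 0.613, which is close to the panel's 35.6% lower and 18.8% higher. Mmp13 was at 2.26 against 18.4, with 27.9% of its molecules in E18.5 BM cells in 1 cell and thinned shares of 0.783% and 1.48%. The aggrecan gene Acan had 1 molecule against 61. Col10a1, a collagen of hypertrophic cartilage, was higher with 5.51 against 2.61, with 33.7% of its molecules in E18.5 EC in 1 cell and a ratio of 0.0305 with raw molecules. Matn1, a cartilage matrix protein in none of the lists, was at 1.99 against 0.607 with 46.7% in 1 cell.

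Transcripts of dividing cells were in fewer Ptprc cells on the sorted side. Mki67, Top2a or Cdk1 was in 61.1% (57.8 to 64.3) of thinned Ptprc cells of E18.5 EC and in 79.2% (78.3 to 80.1) of those of E18.5 BM cells. The levels of Top2a, a topoisomerase of dividing cells, were 589 against 747, and those of the kinase Cdk1 368 against 436. The ratio of Top2a was 0.789, and 1.04 (1.01 to 1.07) without cells that held 2 or more endothelial targets. Of the 4 cell cycle targets tested, whose median ratio was 0.817, Ccne1 alone was past 2-fold. It encodes a cyclin of entry into DNA replication and was at 60.0 against 133, 2.21 times lower (2.07 to 2.37). Myc, a growth transcription factor and Wnt target, was at 210 (203 to 218) against 597 (593 to 602), 2.84 times lower (2.74 to 2.95), and in 37.9% against 62.4% of thinned cells.

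Of 9 Wnt ligands tested, 5 were lower, 1 was higher and 3 were in between, with a median ratio of 0.491, against 35.6% lower and 18.8% higher over the panel, and all were sparse. Wnt4 (61 molecules in E18.5 BM cells) and Wnt9a (83) had none in E18.5 EC. When set to 3 molecules they were 2.66 and 3.61 times lower, and by the exact interval at least 2.09 and 2.87 times. Wnt5b, Wnt6 and Wnt11 were at 0.199 against 1.23, 0.465 against 1.68 and 0.996 against 2.03. Wnt10b was higher with 16 molecules, 1.06 against 0.512, a ratio of 2.08 that was 1.195 after the first correction step, 1.16 with raw molecules and 1.49 with a minimum of 4 Ptprc molecules.

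Of 10 receptors, 6 were lower (35.6% over the panel) and 1 was higher (18.8%), with a median ratio of 0.388. The Frizzled receptor Fzd9 was at 2.26 (1.56 to 3.16) against 10.6, 4.71 times lower (3.35 to 6.83), and in 1.01% against 6.25% of thinned cells. Fzd3 was at 0.531 against 1.95. Fzd2 was not seen in E18.5 EC. It was 2.39 times lower when set to 3 molecules, but by the exact interval at least 1.88 times. The R-spondin receptors Lgr4 and Lgr5 were at 5.98 against 16.7 and at 0.133 against 1.06. Fzd4, a receptor of endothelium, was higher with 17 molecules, 1.13 against 0.399, and lower at a ratio of 0.656 when the Ptprc minimum was set after thinning. Fzd7 did not pass 2-fold, with 21.2 against 24.0.

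Of 5 secreted modulators 2 were lower and 3 in between, near the panel's 35.6% lower, with a median ratio of 0.792. Rspo2, a ligand of the Lgr receptors, was not seen in E18.5 EC. It was 3.87 times lower when set to 3 molecules, and by the exact interval at least 3.09 times. Dkk3, of the Dickkopf family, was at 0.398 against 3.02. Wls, the carrier needed to secrete Wnt proteins, was at 69.3 (65.1 to 73.6) against 70.3 (68.8 to 71.9), a ratio of 0.985 (0.922 to 1.05). Of 8 intracellular components 7 were within 2-fold, such as the scaffold protein Axin1 with 128 against 148, and the other was Lef1, with a median ratio of 0.877. Of the 3 Wnt targets Myc and Lef1 were lower, and Ccnd1, the cyclin of early cell cycle, was within 2-fold with 146 against 211.

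Sorted by what they held, the thinned Ptprc cells of E18.5 EC were 25.1% with Stab1 alone, 4.36% with Mmp9, Ctsk or Atp6v0d2 alone, 1.68% with Hlf alone and 0.783% with Lef1 or Alpl alone, and 66.3% (63.1 to 69.4) had none of them. In E18.5 BM cells these shares were 5.84%, 6.59%, 10.1%, 20.99% and 53.6%. These sets left out Acp5, which 55.5% and 40.0% of all thinned Ptprc cells had, and Acp5 was not counted in the cells with none of them. Of the cells with none in E18.5 EC 74.4% had Pecam1, and Srgn made up 40.4% of their molecules. In E18.5 BM cells these values were 35.9% and 36.6%. Mki67, Top2a or Cdk1 was in 74.0% and 75.2% of the cells with none. No member of the lymphoid or erythroid list was seen in both files, so cells of those lineages could not be told from other Ptprc cells.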

How the data were processed

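Both E18.5 libraries were made on the BD Rhapsody system with a custom primer panel. Per the file headers, the authors used version 1.8 of the Targeted Analysis Pipeline of BD Rhapsody (the methods name another release), which aligned reads to the amplicons, called cells and corrected molecular identifiers. The deposited files hold counts of reads and molecules per cell and amplicon, raw, after recursive (RSEC) and after distribution-based (DBEC) error correction, with no normalization. DBEC molecules, 21.2% (E18.5 EC) and 41.6% (E18.5 BM cells) of raw molecules, were summed per cell and gene symbol. No cell had under 20 molecules. The depth sets the precision: 3 molecules are a level of 0.199 in the Ptprc cells of E18.5 EC, and 0.026 for E18.5 BM cells.

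Ratios of levels were given with exact conditional intervals and shares with Clopper-Pearson intervals (95%), in Python 3.11.15 with scipy 1.17.1, and the ratio, its interval and the 2-fold call were tested on simulated data. Targets needed 20 molecules. A target at 0 on 1 side was set to 3 molecules. Cells were thinned once (seed 1), were not clustered and were not searched for doublets. The members and gene lists were chosen with earlier results of these data known. Named were Ptprc, Srgn and Pecam1, the 10 highest and 10 lowest ratios among targets with 50 molecules or more, the members with 20 molecules or more of the blood and endothelial lists, and of the other lists the most abundant member and those past 2-fold with 50 molecules or more. A target listed in 1 E18.5 file only was named from 20 molecules. Of the targets this rule picks, 1 is not reported here. Transcript positions were read from GENCODE M21.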

Additional observations from a re-analysis of the deposited data

Results flagged for a closer look

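Targets listed in only 1 of the E18.5 files were left out of the comparison, and 2 of them had more than 3 molecules in Ptprc cells. Cilp, a cartilage matrix protein, had 141 molecules in Ptprc cells of E18.5 BM cells, in 0.206% of the cells, and none in E18.5 EC. It was 6.14 times lower at a limit of 3 molecules, and by the exact interval at least 4.93 times. The ligand Wnt7a had 9 molecules in Ptprc cells of E18.5 BM cells, and the limit for E18.5 EC is above that level. Groups of 1 library allow no check for samples that stand apart.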

How the results depend on the processing

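No paired analysis was possible because each group is 1 library and the labels carry no replicate numbers. The numbers below are ratios in the order Pecam1, Srgn, stem and progenitor list, myeloid and osteoclast list and endothelial list without Pecam1; the ratios of the comparison were 3.73, 1.35, 0.237, 1.04 and 3.74, and what moved inside the counting interval is left out.

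RSEC molecules gave 8.29, 1.24, 0.835, 0.958 and 6.44, and raw molecules 7.45, 1.43, 0.723, 1.10 and 5.69. In both the Ptprc minimum was applied to those molecules, which took in more cells. A minimum of 1 Ptprc molecule gave 4.22, 1.41, 0.296, 1.08 and 4.06. A minimum of 4 gave 1.26 for Srgn, 0.9999 for the myeloid list and 3.57 for the endothelial list. A minimum of 50 molecules per cell gave 3.91 for Pecam1, 1.37 for Srgn, 1.0025 for the myeloid list and 3.91 for the endothelial list. Totals without Pecam1, Srgn and Ptprc gave 4.57, 1.65, 0.291, 1.28 and 4.58, and cells weighted equally gave 3.22, 1.22, 0.174, 2.07 and 3.13. Without cells holding 2 or more endothelial targets the ratios were 3.43 for Pecam1, 1.60 for Srgn, 0.661 for the myeloid list and 1.57 for the endothelial list. Thinned cells gave 3.59, 1.27, 0.190, 1.94 and 3.46. With the Ptprc minimum applied after thinning they were 3.34, 1.10, 0.181, 3.60 and 3.21, with 23 targets lower. The next 4 were chosen after seeing the data. Against only the E18.5 BM Ptprc cells with Pecam1, with E18.5 EC left whole, they were 1.79, 1.03, 0.196, 3.72 and 4.37. Without cells holding 2 or more mesenchymal targets they were 3.38, 1.33, 0.196, 0.99 and 3.61, with 23 targets lower. Without the top cell of each library the myeloid list was at 1.003, and without Stab1 and Ecm1 the endothelial list was at 2.44. The myeloid list was thus on either side of 1.

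The difference in thinned shares, E18.5 EC minus E18.5 BM cells, was 28.0 points for Pecam1, 16.3 for Stab1, -7.29 for Hlf and -14.9 for Lef1 at 30 molecules per cell, and 40.3 for Pecam1, 24.1 for Stab1 and -20.1 for Lef1 at 80.

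Of 41 named targets past 2-fold with molecules on both sides, 31 stayed on their side of 1 under every alternative run. Of the 15 that were higher, 5 stayed past 2-fold without cells holding 2 or more endothelial targets, a filter that counts many of them. Under each other alternative 11 to 15 stayed past it. Of the lower ones, 18 of 26 stayed past it without cells holding 2 or more mesenchymal targets. Each other alternative kept at least 21. Col10a1 crossed it with RSEC molecules (0.0347), raw molecules (0.0305), a minimum of 1 Ptprc molecule (0.132) and without cells holding 2 or more endothelial targets (0.0598), where Gja4 (0.709) and Sema3g (0.147) crossed it too. Stc1 was at 4.10 with RSEC and 2.79 with raw molecules, and Spp1 at 0.981 with raw molecules. With the Ptprc minimum after thinning Acta2 was at 1.04, Fzd4 at 0.656, Rgs5 at 1.15, Sema3g at 0.787 and Tagln at 2.01. Without cells holding 2 or more mesenchymal targets Acta2 was at 1.76, Rgs5 at 2.89, Tagln at 2.19 and Sema3g at 0.760. Atp6v0d2 was at 1.39 against the E18.5 BM Ptprc cells with Pecam1. The causes were not tested. Low counts limit the Wnt ligands, and 1 library a side limits every ratio.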
